A study of Xenopus laevis with 10 samples.

Results

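Xenopus laevis carries most of its genes as homeologs, a pair of copies from an ancient hybridisation that lie on the long (.L) and the short (.S) chromosome of each chromosome pair. The 5 homeolog pairs described here were chosen because, in the intestine of fed and unfed tadpoles, one copy was higher with feeding and the other lower. They are stx6, nedd4l, tubb6, tmem104 and egln3, which makes 10 genes of the 33775 in the count tables. The choice used the fed minus unfed change of each copy over all 10 libraries, so that change is given for these genes as a description, without p-values. Whether a copy passed the threshold on feeding is mentioned only to show how far the choice depends on single libraries and settings, and supports nothing. Tests are given for age and experiment, contrasts that the choice did not use, and for the difference of the feeding effect between experiments. That difference is built from the same fed minus unfed changes as the choice, which may favour copies with similar changes in both experiments.

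RNA was sequenced from isolated intestinal tubes of tadpoles raised at 19 °C that had been fed or left unfed. Each of the 10 libraries pooled 20 to 26 tubes. Experiment 1 covered 10 and 13 days post fertilization (dpf) and experiment 2 covered 10, 13 and 16 dpf, and each age had a single fed and a single unfed library per experiment. No genotype, strain or other treatment is stated for any group. Nothing in the labels tells whether clutches or cultures were shared between libraries, so p-values measure only the spread between these libraries. Ages follow the titles. For 2 libraries of experiment 1 the stage field differs from the title: it gives 10 dpf for the fed one titled 13 dpf and 13 dpf for the unfed one titled 10 dpf. In pooled tissue, fewer cells of a type and less RNA per cell cannot be told apart.

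After a genome doubling the copies of a gene may keep the same regulation, divide the ancestral expression between them or drift apart, and a response measured for the sum of both copies hides any such divergence. The genes of the 5 pairs act in different processes. Syntaxin-6 is a SNARE protein of the trans-Golgi network and endosomes that helps transport vesicles fuse with their target membranes. NEDD4L is a HECT-type ubiquitin ligase, best known in mammals for removing the epithelial sodium channel from the cell surface. TUBB6 is a beta-tubulin, a building block of microtubules. TMEM104 is a multi-pass membrane protein whose sequence resembles the amino acid and auxin permease family. EGLN3 is a prolyl hydroxylase that, with oxygen, marks the alpha subunits of the hypoxia-inducible factors (HIF) for degradation, and in mammals its own gene is a HIF target.

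The libraries held 6999504 to 9934702 counts over all genes. All 10 copies passed the filter on low counts, which 21631 genes passed, and single copies had 27 to 1336 counts in a library. Levels are given as CPM, the count of a gene scaled to a common library size after TMM normalization (trimmed mean of M values). Intestinal epithelium markers (9 copies of 5 genes) summed to 6335 to 9069 CPM in fed and 1516 to 6529 CPM in unfed libraries, which fits the labelled tissue. Of the marker lists, 3 of 8 tested epithelial copies and 5 of 8 smooth muscle copies were called higher in fed libraries, and none lower. The shares among all tested genes were 25.4% called higher and 26.1% lower (edgeR quasi-likelihood test, adjusted p below 0.05). Of the leukocyte copies 5 of 5 tested were called lower in fed libraries, with sums of 62.1 to 93.1 CPM in fed and 106.5 to 273.9 CPM in unfed libraries, and of the enteric neuron copies 4 of 7 were called lower (41.5 to 55.0 against 49.1 to 79.8 CPM). Smooth muscle sums were 6612 to 16500 CPM in fed and 6001 to 10800 CPM in unfed libraries. Markers of other tissues gave sums of 39.4 to 720.3 CPM in fed and 71.1 to 886.0 CPM in unfed libraries for exocrine pancreas, 41.4 to 96.9 and 44.1 to 94.1 CPM for liver, 5.62 to 8.496 and 6.37 to 40.5 CPM for skeletal muscle, and 593.0 to 2756 and 101.7 to 1544 CPM for red cells. Of these, 1 skeletal muscle copy was called, lower in fed libraries. No marker copy analysed was at 0 counts over the libraries, and cela1 and cela2a were not analysed here. Some of these marker copies changed with feeding, as the 5 pairs did, and the part of the markers in the values below was not tested.

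For stx6, the L copy was higher and the S copy lower in fed tadpoles. In fed libraries stx6.L was at 20.4 and 28.0 CPM in experiment 1 (10 and 13 dpf) and at 27.2, 23.9 and 24.0 CPM in experiment 2 (10, 13 and 16 dpf). The unfed libraries had 17.2 and 14.8 CPM in experiment 1 and 15.6, 15.4 and 16.3 CPM in experiment 2. Every fed library lay above every unfed one, though the fed 10 dpf library of experiment 1 came near the highest unfed value. stx6.S went the other way, with 7.71 and 8.02 CPM, then 7.18, 4.68 and 4.40 CPM in fed libraries. Its unfed values were 14.5 and 13.2 CPM in experiment 1 and 12.5, 9.52 and 11.04 CPM in experiment 2. Again the groups did not overlap. The mean difference over the 5 fed and unfed library pairs of the same age and experiment was 0.62 ± 0.25 (SD, n = 5) on the log2 scale for stx6.L and -0.93 ± 0.23 for stx6.S.

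For nedd4l, the S copy was the one with more transcript in fed tadpoles. nedd4l.S stood at 39.8 and 54.9 CPM in the fed libraries of experiment 1 and at 51.5, 36.9 and 39.9 CPM in those of experiment 2. Without feeding it was at 29.5 and 26.4 CPM, then 33.6, 27.5 and 20.6 CPM. The lowest fed library was above the highest unfed one. nedd4l.L was at 14.7 and 19.4 CPM, then 16.3, 17.5 and 14.4 CPM in fed libraries. In unfed libraries it held 28.7 and 30.5 CPM, then 31.8, 27.4 and 28.2 CPM, a narrow range well clear of the fed one. The log2 difference was 0.69 ± 0.29 for nedd4l.S and -0.83 ± 0.17 for nedd4l.L (SD over 5 library pairs). The tables list 14 transcripts of nedd4l.L and 15 of nedd4l.S, and every one had the direction of its copy. Within a copy their counts were identical or nearly so, so the transcripts are not separate measurements and their agreement supports nothing. The log2 ratio of mean fed to mean unfed CPM, here without TMM scaling, was -1.01 to -0.91 for L and 0.55 to 0.60 for S.

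tubb6 had the most abundant of the copies. tubb6.S was at 41.0 and 35.2 CPM, then 56.7, 62.6 and 42.7 CPM in fed libraries, against 114.5 and 143.2 CPM, then 128.7, 116.8 and 80.9 CPM in unfed ones. The groups did not overlap, and the unfed 16 dpf library was the nearest to the fed values. tubb6.L was at 12.2 and 12.9 CPM in experiment 1 and 26.9, 29.8 and 17.8 CPM in experiment 2 among fed libraries, and its unfed values were 9.56 and 7.51 CPM, then 14.3, 12.8 and 11.6 CPM. Here the groups overlapped, since both fed libraries of experiment 1 fell below the highest unfed library of experiment 2. Within each experiment the fed and unfed values of tubb6.L were apart. The log2 difference was -1.30 ± 0.46 for tubb6.S and 0.76 ± 0.32 for tubb6.L (SD, n = 5 library pairs).

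tmem104 had the lowest counts of the pairs. tmem104.L was at 8.21 and 7.53 CPM, then 9.57, 6.15 and 10.5 CPM in fed libraries and at 5.02 and 5.04 CPM, then 6.99, 4.24 and 5.57 CPM in unfed ones. The groups overlapped by 1 library on each side, the fed 13 dpf and the unfed 10 dpf library of experiment 2. tmem104.S was at 5.10 and 8.38 CPM, then 4.79, 3.61 and 7.44 CPM with feeding, and at 12.1 and 13.1 CPM, then 10.97, 14.1 and 16.1 CPM without. Those groups did not overlap. The log2 difference was 0.62 ± 0.17 for tmem104.L and -1.20 ± 0.46 for tmem104.S. In the RefSeq gene table of assembly Xenopus_laevis_v10.1, tmem104.S overlaps nat9.S, an N-acetyltransferase gene, and whether the authors counted by strand is not given in the sources used here. Without the strand setting, reads shared with nat9.S cannot be told apart from those of tmem104.S. nat9.S had a log2 fold change of -0.32 ± 0.14 (SE, edgeR quasi-likelihood test, adjusted p 0.0828).

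For egln3, the L copy was lower in fed tadpoles and differed most at 16 dpf. egln3.L was at 4.60 and 7.05 CPM, then 7.06, 6.95 and 5.01 CPM in fed libraries. Unfed libraries had 9.56 and 13.2 CPM in experiment 1 and 16.7, 17.4 and 25.6 CPM in experiment 2, so that the groups did not overlap and the unfed 16 dpf library was the highest. egln3.S was at 11.8 and 16.9 CPM, then 11.4, 16.8 and 10.9 CPM with feeding and at 6.47 and 4.72 CPM, then 6.99, 10.2 and 13.2 CPM without. It overlapped between the groups and was the single copy whose direction was not the same in all 5 library pairs. At 16 dpf egln3.S was lower in the fed library, by -0.27 on the log2 scale, while the other 4 pairs ran from 0.68 to 1.79. The log2 difference over the 5 pairs was -1.34 ± 0.56 for egln3.L and 0.75 ± 0.73 for egln3.S. The mean of egln3.S was 1.32 in experiment 1 and 0.37 in experiment 2, where it includes the 16 dpf pair. egln3.S overlaps LOC108700312 in the same gene table, and no value for that gene was used here.

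**Figure D1:**
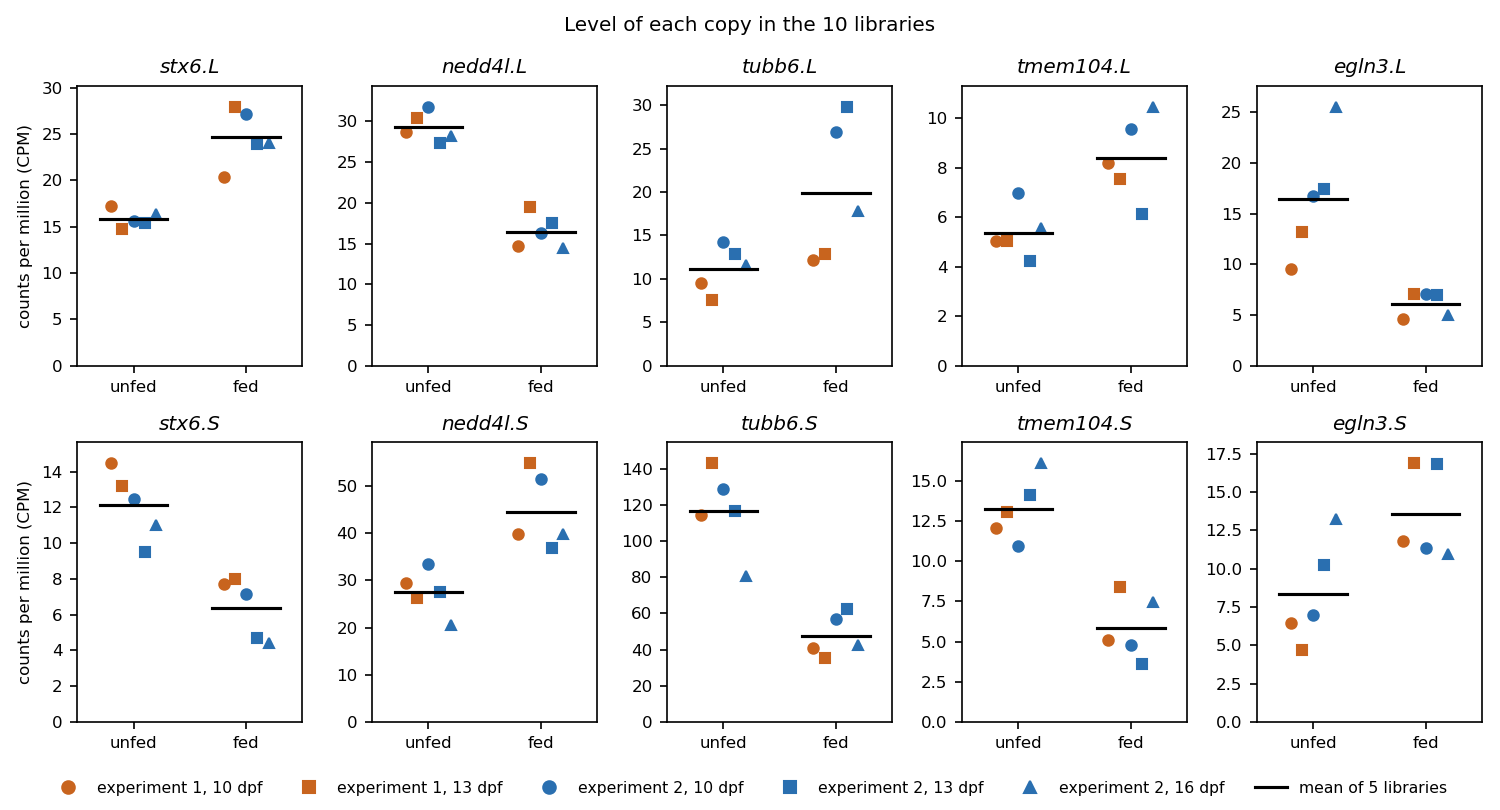
CPM (vertical axis, from 0) of the L copies (top) and S copies (bottom) in the 5 unfed and 5 fed libraries. Colour gives the experiment, symbol the age and the line the mean; in each column the mean moves in opposite directions in the upper and lower panel, with overlapping groups for tubb6.L, tmem104.L and egln3.S.

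Of the 10 copies, 9 kept 1 direction in all 5 library pairs and 7 had fed and unfed values that did not overlap. For comparison, 30.5% of all tested genes had groups that did not overlap, and the feeding fit called 25.4% of them higher and 26.1% lower in fed libraries (edgeR quasi-likelihood test, adjusted p below 0.05). The copies were chosen on that contrast, so nothing is read from these counts. In the plot of differences by library pair, the means of the experiments were farthest apart for egln3.S, given above. Next came tubb6.S, with -1.75 in experiment 1 and -0.999 in experiment 2, whereas nedd4l.L had nearly the same mean in both, -0.80 and -0.85. The means of experiment 2 include 16 dpf, an age that experiment 1 lacks. The call of egln3.S was lost on leaving out any 1 of the 10 and 13 dpf libraries other than the unfed 10 dpf library of experiment 1 and the fed 10 dpf library of experiment 2. With the ages of the stage field egln3.S and tmem104.L fell short of it, leaving 3 of the 5 pairs called in opposite directions.

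**Figure D2:**
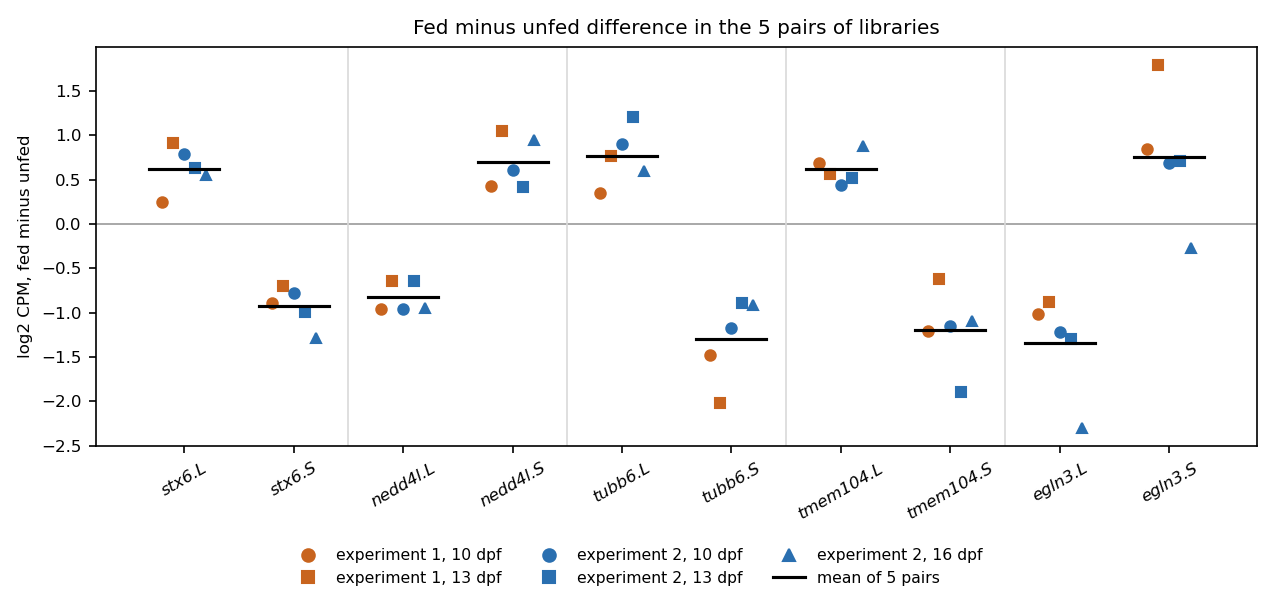
Difference in log2 CPM between the fed and the unfed library of the same age and experiment (vertical axis) for each copy. Points are the 5 library pairs and lines their means; only egln3.S has a point on the other side of 0 from its mean, at 16 dpf.

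How the copies rank was read from CPM per kilobase of the deposited length of the transcript kept for each copy. The order depends on that length, above all for nedd4l, whose listed transcripts had 4338 to 6328 bases for L and 3690 to 5425 for S. The longest was kept for L. In unfed libraries tubb6.S led with 71.3 ± 14.1 CPM per kilobase (SD, n = 5), followed by stx6.L (7.52 ± 0.44), tubb6.L (7.16 ± 1.72), nedd4l.S (6.08 ± 1.05), egln3.L (5.84 ± 2.11), stx6.S (5.44 ± 0.86), tmem104.S (5.18 ± 0.77), nedd4l.L (4.63 ± 0.28), egln3.S (4.45 ± 1.81) and tmem104.L (1.69 ± 0.32). The 8 copies between tubb6.S and tmem104.L each differed from the next in that order by less than the larger SD of those neighbours. In fed libraries the copies drew apart into an upper and a lower set. For stx6, nedd4l and egln3 the copy that was higher with feeding fell in the upper set and the other in the lower. The choice of pairs with opposite changes favours that, so it is a description. Both copies of tubb6 fell in the upper set and both of tmem104 in the lower. tubb6.S had 29.1 ± 7.01, tubb6.L 12.8 ± 5.18, stx6.L 11.7 ± 1.43, nedd4l.S 9.85 ± 1.77 and egln3.S 7.25 ± 1.62 CPM per kilobase, where tubb6.L and stx6.L did not differ beyond their SD. The other 5, stx6.S, tmem104.L, nedd4l.L, tmem104.S and egln3.L, had means of 2.17 to 2.87 CPM per kilobase, and neighbours among them did not differ beyond their SD.

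The share of the L copy in the per-kilobase level of a pair combines both movements. For stx6 it was 80.4 ± 4.68% in fed and 58.2 ± 3.70% in unfed libraries (SD, n = 5), so L led in all 10 libraries. nedd4l had 21.1 ± 2.56% and 43.6 ± 3.80%, with S ahead in all 10 libraries for the transcripts kept here. For tubb6 the L copy had 29.7 ± 4.05% with feeding and 9.45 ± 2.97% without. In tmem104 and egln3 the leading copy differed between the feeding states. tmem104.L held 54.2 ± 7.498% in fed libraries and led in 4 of 5, and it held 24.8 ± 5.52% in unfed libraries and led in 0 of 5. egln3.L held 23.2 ± 3.46% in fed libraries, leading in 0 of 5, and 57.0 ± 6.21% in unfed ones, leading in 4 of 5.

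These shares did not overlap between fed and unfed libraries in any of the 5 pairs, against 16.9% of the 4955 homeolog pairs with both copies tested. A feeding change of the L to S ratio was called for 29.1% of the 4955 pairs (limma, adjusted p below 0.05). The 5 pairs were chosen for such a change, so this too is a description. The log2 L to S ratio differed between fed and unfed libraries by 1.55 ± 0.26 for stx6, -1.52 ± 0.32 for nedd4l, 2.06 ± 0.47 for tubb6, 1.81 ± 0.46 for tmem104 and -2.09 ± 0.33 for egln3 (SD over 5 library pairs). Which transcript stands for a copy matters most for nedd4l. Over the 210 combinations of its listed transcripts the mean share of L ran from 18.9 to 29.9% in fed and from 40.1 to 55.2% in unfed libraries, so that the leading copy in unfed tadpoles is uncertain, and in all 210 the feeding states did not overlap. The transcripts of a copy had nearly the same counts, so these combinations differ mainly in length and are not separate measurements.

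Summed over both copies, the opposite movements left different amounts of net change. For stx6 the sum was 14.6 ± 1.76 CPM per kilobase in fed and 13.0 ± 1.11 in unfed libraries, with overlapping groups. The nedd4l sum was 12.5 ± 1.99 and 10.7 ± 1.24, higher in fed libraries in 5 of 5 library pairs but with overlapping groups. At 10 dpf in experiment 1 it was nearly the same, 11.11 in the fed and 11.04 in the unfed library. Like the share, the nedd4l sum depends on the lengths of the transcripts kept. egln3 had 9.42 ± 1.92 and 10.3 ± 3.80 CPM per kilobase, higher in 2 pairs and lower in 3. The tubb6 sum was lower with feeding in 5 of 5 pairs, at 41.8 ± 12.1 against 78.4 ± 13.7 CPM per kilobase, and the groups overlapped by the unfed 16 dpf library and the fed 13 dpf library of experiment 2. For tmem104 the sum was 4.93 ± 1.09 in fed and 6.87 ± 0.69 CPM per kilobase in unfed libraries, lower in 5 of 5 pairs and without overlap.

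**Figure D3:**
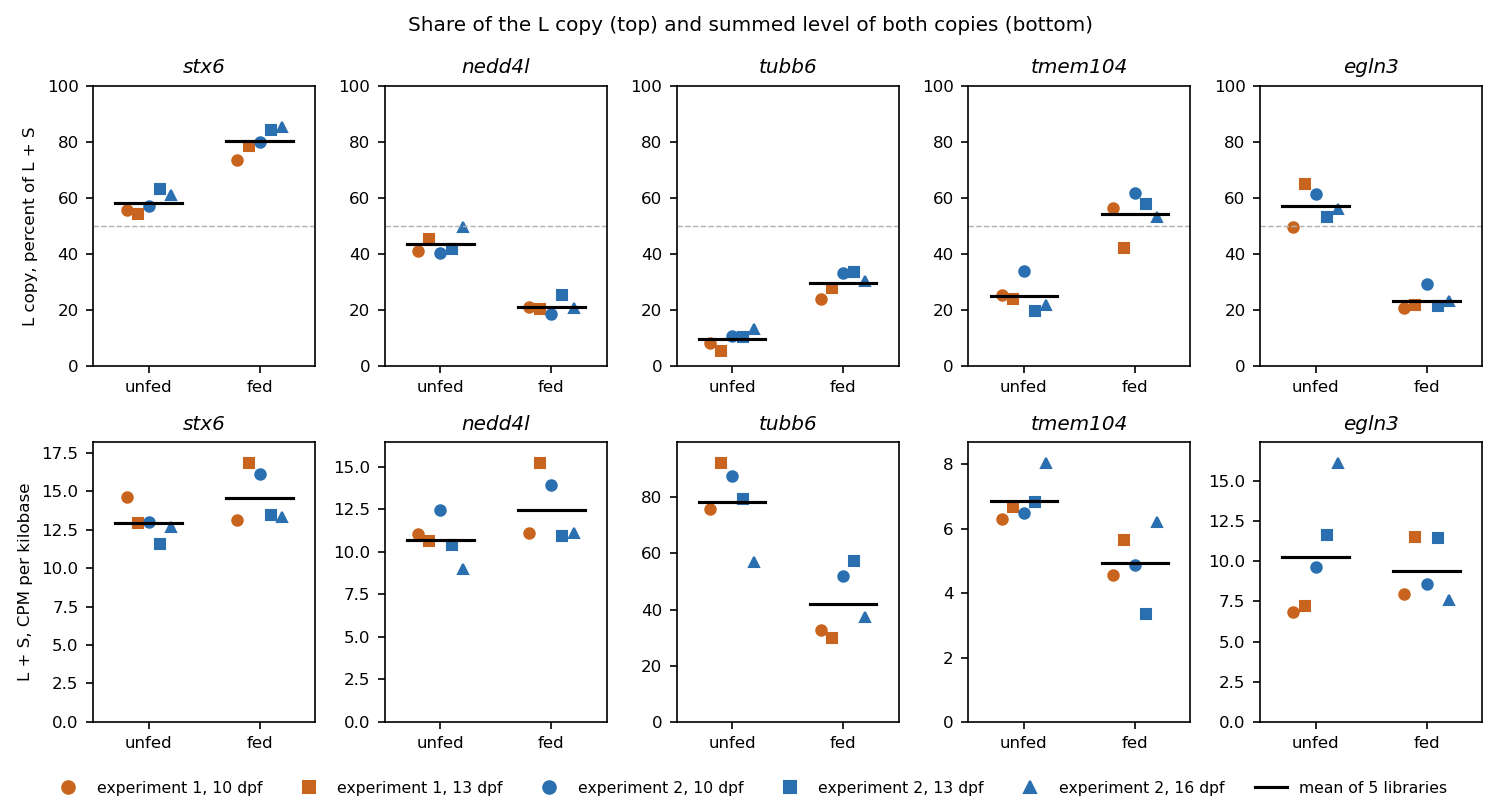
Share of the L copy in the summed per-kilobase level (top, percent, dashed line at equal levels) and the sum itself (bottom, CPM per kilobase, from 0) in the 5 unfed and 5 fed libraries of each pair. The share is apart between feeding states in all 5 pairs and crosses the dashed line for tmem104 and egln3, while the sum is apart only for tmem104.

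The next question was how the copies varied with age and experiment, contrasts that did not enter the choice. Between 10 and 13 dpf none of the 10 copies was called by edgeR's quasi-likelihood test, with log2 fold changes of -0.36 (tmem104.L, SE 0.19) to 0.35 (egln3.S, SE 0.27) and adjusted p of 0.9999 for each. The background was 0.0% of all tested genes, with 386 genes at an unadjusted p below 0.05, none of them a member, and 2 genes called by DESeq2. The L to S ratios changed by -0.55 (tmem104, SE 0.22) to 0.27 (stx6, SE 0.16), again with 0 of 5 called by limma at 1 unadjusted p below 0.05 and a background of 0.0% of pairs, 163 of which had an unadjusted p below 0.05. At these standard errors no change with age was called, which does not show that there was none.

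Between the experiments, 1 copy differed. tubb6.L was higher in experiment 2 by a log2 fold change of 0.93 ± 0.16 (SE; edgeR quasi-likelihood test, adjusted p 0.0167), where 4.36% of all tested genes were called. It was at 12.2 to 12.9 CPM in the fed and 7.51 to 9.56 CPM in the unfed libraries of experiment 1, and at 17.8 to 29.8 CPM and 11.6 to 14.3 CPM in those of experiment 2. So in each feeding state every library of experiment 2 was above both libraries of experiment 1. The call was lost without the fed 13 dpf library of experiment 1 (adjusted p 0.0568), the unfed 13 dpf library of experiment 1 (0.0589), the fed 10 dpf library of experiment 2 (0.067) or the fed 13 dpf library of experiment 2 (0.0584), with the difference still at 0.82 to 0.92. tubb6.S differed by 0.27 ± 0.19 (adjusted p 0.401), and the tubb6 L to S ratio by 0.62 ± 0.17 (limma, adjusted p 0.0706). No ratio of the 5 pairs was called, against 3.07% of all pairs.

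Whether the feeding effect itself differed between experiments was tested with a feeding by experiment term. It was called for 0 of the 10 copies and 0 of the 5 ratios, against a background of 0.0% of genes (edgeR; 1463 at an unadjusted p below 0.05 and 92 called by DESeq2) and 0.0% of pairs (limma; 319 at an unadjusted p below 0.05). The largest terms were -0.94 ± 0.42 for egln3.S (SE; unadjusted p 0.0488, adjusted p 0.736) and 0.75 ± 0.27 for tubb6.S (unadjusted p 0.0197, adjusted p 0.648). egln3.L had -0.65 ± 0.40 (adjusted p 0.789). Only experiment 2 had 16 dpf, and the fit had no feeding by age term. In this fit a different feeding effect at 16 dpf cannot be told apart from one between experiments. In experiment 2 the log2 change at 10, 13 and 16 dpf was 0.68, 0.71 and -0.27 for egln3.S. It was -1.22, -1.30 and -2.30 for egln3.L and -1.18, -0.90 and -0.92 for tubb6.S. The terms of egln3.S and tubb6.S were below 0.05 before but not after adjustment over all tested genes. With 4 libraries in experiment 1, a difference that was not called may still be present. The copies were chosen on the same fed minus unfed changes, so nothing is read from the absence of calls.

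**Figure D4:**
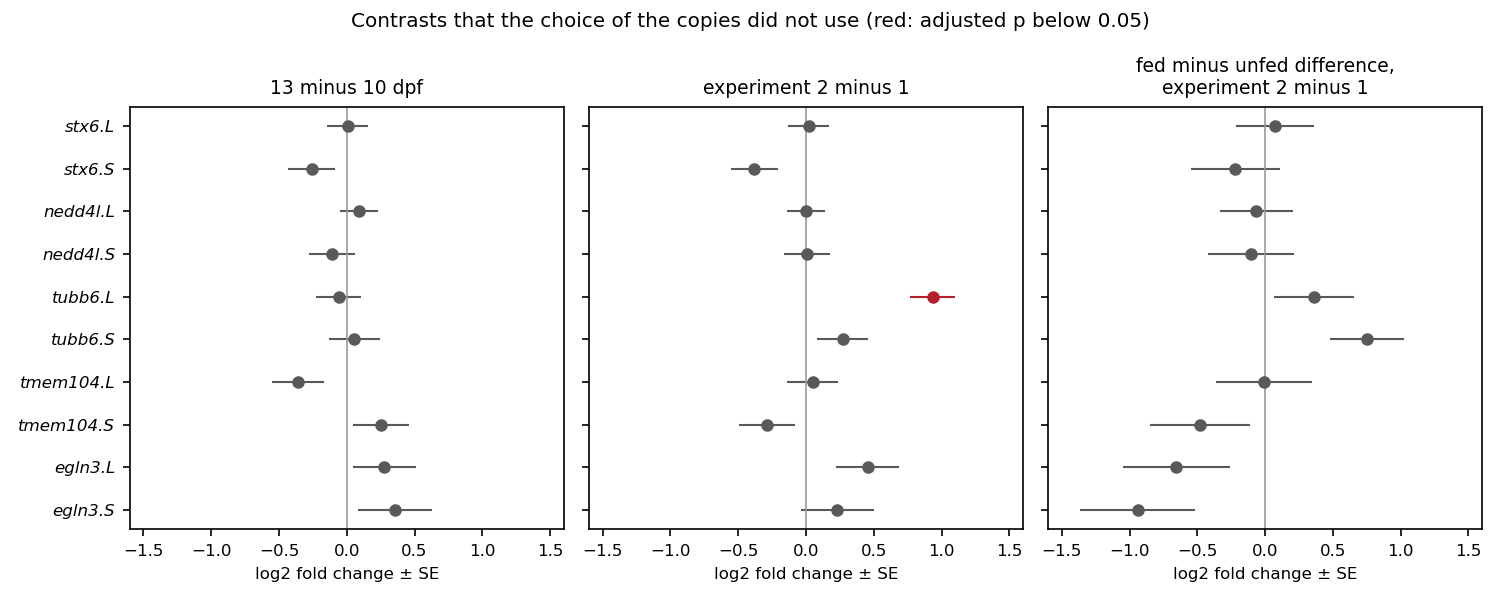
Log2 fold change with its standard error (horizontal axis) of each copy between 13 and 10 dpf, between experiments, and for the difference of the feeding effect between experiments. The point in red, tubb6.L between experiments at 0.93, is the only one with an adjusted p below 0.05. Despite the heading, the right panel is built from the fed minus unfed changes that the choice used. Nothing is read from its lack of red points.

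Opposite calls were a small class among homeologs. Of the 4955 pairs tested, both copies were called by the feeding fit in 1798, in the same direction in 1737 and in opposite directions in 61, or 1.23% of pairs tested and 3.39% of those with both copies called. In a further 1698 pairs exactly 1 copy was called. Among the 61, the L copy was the higher one in fed tadpoles in 35 and the S copy in 26. Ranked by the smaller of the absolute log2 fold changes of the copies, the 5 pairs stood between the 15th (tubb6, 0.78) and the 27th place (stx6, 0.64), where the median of the 61 was 0.59 and the range 0.31 to 1.24. Just above tubb6 came nppc with 0.79 and just below stx6 tbc1d30 with 0.62. The 6 pairs at the head of that order were flvcr1, a heme exporter gene in mammals (L 1.24, S -1.43), the neuromedin receptor gene nmur1 (L 1.04, S -1.26), the citron kinase gene cit (L 1.27, S -1.02), ankrd22 (L -1.45, S 1.02), fam83f (L -1.86, S 0.97) and slc16a14 (L 1.49, S -0.96). Without 1 library at a time the number of such pairs was 27 to 55, and 3 libraries moved it most: it was 31 without the unfed 13 dpf library of experiment 1, 36 without the fed 10 dpf library of experiment 2 and 27 without the unfed 13 dpf library of experiment 2.

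**Figure D5:**
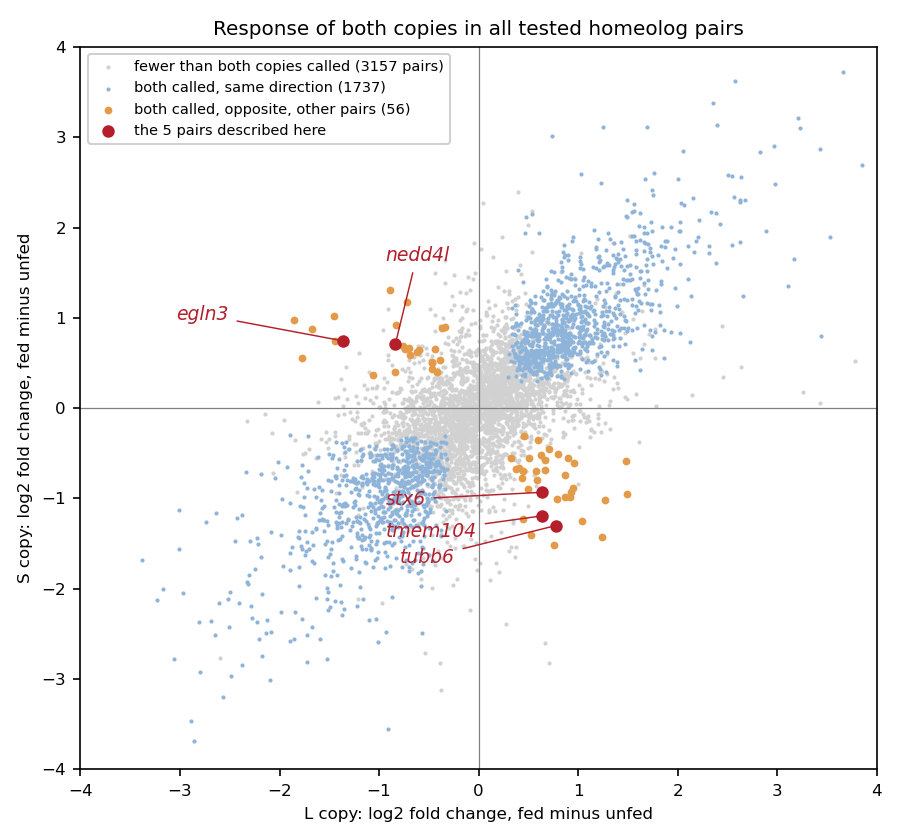
Log2 fold change of the S copy (vertical axis) against that of the L copy (horizontal axis), fed minus unfed, for the 4955 homeolog pairs; 16 pairs lie beyond the axes. Most pairs with both copies called lie in the lower left and the upper right (1737), and the 5 named pairs lie among the 61 in the other corners.

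Genes related to each pair were read from lists of their pathways, with the 5 pairs left out. The background for each is 25.4% of tested genes called higher and 26.1% lower in fed libraries, with a median log2 fold change of -0.02. Of all homeolog pairs with both copies called, the 5 pairs included, 3.39% were called in opposite directions. Each list holds few such pairs, so nothing is read from a list without opposite calls. In the SNARE list, 20 of 71 tested copies were called higher and 9 lower, with a median of 0.22. Those with the smallest p act between endoplasmic reticulum and Golgi: sec22b.L rose from 18.3 ± 2.34 to 40.2 ± 4.48 CPM (log2 fold change 1.13 ± 0.13 SE, adjusted p 7.22e-05), stx5.S rose by 1.20 ± 0.15, stx5.L by 1.07 ± 0.13 and bet1.S by 0.97 ± 0.13. Of the syntaxins nearest to syntaxin-6 in role, stx10.L rose by 0.65 ± 0.16 (adjusted p 0.0053) and stx16.L by 0.59 ± 0.13 (adjusted p 0.00265), while stx16.S had -0.11 ± 0.14 (adjusted p 0.551). Both copies were called in 4 of 22 homeolog pairs of this list, none in opposite directions.

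In the list of NEDD4 family ligases, their adaptors and epithelial sodium transport, 5 of 52 tested copies were called higher and 16 lower, with a median of -0.21. The genes with the smallest p include 3 that encode alpha-arrestins, adaptors that recruit these ligases: arrdc2.S fell by 1.93 on the log2 scale (SE 0.13, adjusted p 5.38e-06), arrdc4.L by 2.10 (SE 0.17) and arrdc3.L by 1.75 (SE 0.14). The deubiquitinase gene usp2.L rose by 2.64 ± 0.15, from 5.06 ± 0.87 to 31.8 ± 6.18 CPM (adjusted p 2.88e-06). nedd4.L, a paralog whose deposited description is also NEDD4-like, fell by 0.76 (SE 0.17, adjusted p 0.00294), the direction of nedd4l.L, and nedd4.S had 6 to 33 counts a library and was not tested. Of 21 homeolog pairs 6 had both copies called, none in opposite directions.

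Most tubulin and tubulin-folding genes that were called rose with feeding. Of 55 tested copies 31 were called higher and 2 lower, and the median log2 fold change was 0.60. The alpha-tubulin copies tuba1c.S and tuba1c.L rose by 1.91 ± 0.19 and 1.55 ± 0.17 (SE; adjusted p 3.11e-05 and 4.86e-05), and the folding factors tbcc.L and vbp1.L by 1.71 ± 0.15 and 1.39 ± 0.13. Among the beta-tubulins, tubb.L rose by 1.06 ± 0.15, tubb4b.L by 1.03 ± 0.21, tubb4b.S by 1.59 ± 0.22 and tubb2b.L by 1.17 ± 0.27 (adjusted p 0.00393), whereas tubb2b.S had 0.33 ± 0.23 (adjusted p 0.249). LOC108702641, described as tubulin beta-6 chain-like, had 0.59 ± 0.25 (adjusted p 0.0694). The value of tubb6.S, -1.30, was opposite in sign to those of the beta-tubulins named here, and that of tubb6.L, 0.78 in the same fit, on their side. Both copies were called in 9 of 22 homeolog pairs, none in opposite directions.

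The amino acid and auxin permease list had 14 tested copies, of which 3 were called higher and 4 lower, with a median of -0.11. The amino acid transporter copies slc38a4.S and slc38a4.L rose by 1.66 ± 0.33 and 1.38 ± 0.30 and slc36a1.S by 0.98 ± 0.24 (adjusted p 0.00649), while slc38a2.L fell by 0.85 (SE 0.16, adjusted p 0.00105). In the list of the HIF pathway and its targets, 17 of 68 tested copies were called higher and 17 lower, with a median of -0.03. The mitochondrial protein genes higd1a.L and higd1a.S rose by 1.77 ± 0.21 and 2.60 ± 0.30, the enolase gene eno1.L rose by 1.30 ± 0.18, and the hexokinase gene hk2.L fell by 1.70 (SE 0.24, adjusted p 0.000234). Of the other HIF prolyl hydroxylases, egln1.S fell by 0.66 (SE 0.13, adjusted p 0.00144) and egln2.L had 0.24 ± 0.13 (adjusted p 0.133). Opposite calls occurred in none of the 4 and 27 homeolog pairs of these lists, where both copies were called in 1 and 8.

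For each copy the gene with the most similar profile was sought by Pearson's r of log2 CPM over the 10 libraries, which share the split by feeding and the same library scaling. The search covered the 21631 tested genes except the 10 copies, and the highest r of so many genes is a description. The highest r was 0.989 for stx6.L (ddx56.S) and 0.980 for stx6.S (faah.1.S). It was 0.984 for nedd4l.L (macc1.L) and 0.976 for nedd4l.S (slc41a3.L). For tubb6.L it was 0.984 (mtx1.S) and for tubb6.S 0.978 (LOC108704519, described as relaxin receptor 2-like). For tmem104.L it was 0.990 (bspry.L), for tmem104.S 0.980 (fam50a.S), for egln3.L 0.988 (LOC108698547) and for egln3.S 0.935 (znf706l.L), the lowest of the 10.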

How the data were processed

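Reads were aligned with HISAT2 and counted with featureCounts, per the submitters' processing notes; versions, genome build, strand setting and the treatment of reads that fit both homeologs were not given in the sources used here, so some reads may have been assigned to the other copy. The authors deposited raw counts for 63876 transcripts in 10 libraries, with lengths and with RPKM values that were not used. Blank names held 0.0738% and names without an accession 0.136% of counts and were left out. Transcripts were assigned to genes through the RefSeq gene table (Xenopus_laevis_v10.1, names only), with 52334 of 61159 matched, and the transcript with the highest total count stood for each gene. The deposited descriptions name the protein for 8 of the 10 copies, and tubb6.L and egln3.S were identified by accession.

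Counts were filtered with filterByExpr and scaled by TMM, and all genes were tested with edgeR 4.0.16 (quasi-likelihood F test, robust) in R 4.3.3 with terms for experiment, age and feeding. The SE given with edgeR results was computed as the absolute log2 fold change divided by the square root of the F statistic. L to S ratios of log2 CPM (prior count 2) were tested with limma 3.58.1. P-values were adjusted by the Benjamini-Hochberg method over everything tested, with a threshold of 0.05. The experiment number pairs libraries because the labels divide the study into experiments, and the difference between experiments correlated at r 0.341 to 0.514 across genes between groups. Alternatives were DESeq2 1.42.0, DESeq2 size factors, no filter, transcript sums, stage field ages, no replicate block and leaving out each library. The 10 copies and the gene lists were chosen with earlier results of these data known. Named genes are the 10 copies, up to 4 genes per list with the smallest adjusted p and the nearest paralogs, the most similar gene per copy and the 6 leading other pairs. Other genes were named afterwards: overlapping genes, genes with a shared description and neighbours in rank.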

Additional observations from a re-analysis of the deposited data

How the results depend on the processing

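Without the replicate block the number of homeolog pairs called in opposite directions was 34 instead of 61, and leaving out 1 library at a time gave 27 to 55. In each of these settings every one of the 10 copies kept the sign of its feeding change, as it did under DESeq2, DESeq2 size factors, no filter, transcript sums and stage field ages. The copies were chosen for these signs in the same libraries, so the kept signs are a description. Leaving out 1 library gave 0 to 1 copies and 0 to 1 ratios called between experiments: tubb6.L lost its call in 4 such fits, and the tubb6 ratio gained one without the fed 13 dpf library of experiment 1 (adjusted p 0.0498), the fed 16 dpf library (0.0445) or the unfed 16 dpf library (0.0452). All 5 pairs were called in opposite directions except with stage field ages (3 pairs) and without any of 6 libraries (4 pairs, each time for egln3.S). Of the related genes, tubb2b.S passed the threshold without the unfed 10 dpf library of experiment 1. The causes were not tested. Counts of 27 to 162 per library for tmem104 limit its precision. Other copies also had low counts in single libraries, down to 29 for stx6.S, 33 for egln3.L and 44 for egln3.S. The age of 16 dpf rests on 1 library per feeding state.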
